A study of Mus musculus with 6 samples.

Results

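The p53 network was examined in mouse embryonic stem cells (mESCs) with and without a knockout of Setd2, the enzyme that places the histone mark H3K36me3 on transcribed genes. A list of 33 genes was followed, made of p53 itself and genes that p53 is known to switch on. Probe sets were taken when the platform annotation named 1 gene and that gene was on the list. This gave 58 of the 45037 probe sets and 30 of the 33 genes, and Trp53, Bax and Gdf15, which had no probe set by this rule, are not analysed here. The comparison was of 3 Setd2 knockout with 3 wild type arrays, all from cells of the strain background 129SV/C57BL/6, without any treatment. Cells had been grown on feeder cells, which had been depleted on gelatin and over 1 feeder-free passage before RNA was taken. The labels call the 3 arrays of a genotype biological repeats and do not say whether they came from separate lines or clones, nor which part of Setd2 was removed. The p-values measure the spread between these arrays. Values are log2 MAS5 signals, 1 signal per probe set, and a difference of 1 is a doubling. They are read within a probe set and not between probe sets.

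The protein p53 is a transcription factor that accumulates after DNA damage and other stress. It switches on genes that halt the cell cycle, repair DNA or kill the cell, and also genes such as Mdm2 that feed back to lower p53. Mouse embryonic stem cells are known to hold abundant p53 and to divide with a short first gap phase, in which the brake encoded by Cdkn1a has little hold. Members are described below by role: feedback, arrest, death and repair.

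Of the member genes, Ccng1 rose in knockout cells, and with the replicate number as a block Aen, Cdkn1a and Perp rose too. Of these 4 genes, 3 had a window in the set of RefSeq (GRCm38.p6) promoter windows used here, and Perp had none in that set. These windows are shown because p53 sites have been sought in such regions, with that of Mdm2, the main feedback gene, for comparison. Each is the 250 bases before an annotated start, in the direction of the gene, and the capitals mark matches to the p53 half-site consensus and, for Ccng1, the whole of a paired site. That half-site is 10 bases long and reads the same on both strands, so 1 search covered both. A paired site was defined as 2 half-sites up to 13 bases apart with at most 2 mismatches outside the C and G of their cores.
Ccng1, chr11:40755287-40755536, minus strand: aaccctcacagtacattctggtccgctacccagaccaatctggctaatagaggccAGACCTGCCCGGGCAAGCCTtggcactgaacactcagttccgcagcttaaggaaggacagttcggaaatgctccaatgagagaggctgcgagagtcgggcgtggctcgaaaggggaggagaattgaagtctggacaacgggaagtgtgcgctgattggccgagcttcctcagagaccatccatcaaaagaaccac
Aen, chr7:78895808-78896057, plus strand: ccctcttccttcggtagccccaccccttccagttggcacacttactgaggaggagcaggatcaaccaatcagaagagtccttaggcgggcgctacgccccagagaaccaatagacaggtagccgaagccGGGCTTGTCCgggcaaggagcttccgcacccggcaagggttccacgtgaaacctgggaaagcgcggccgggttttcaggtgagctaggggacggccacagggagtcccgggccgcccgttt
Cdkn1a, upstream start, chr17:29090729-29090978, plus strand: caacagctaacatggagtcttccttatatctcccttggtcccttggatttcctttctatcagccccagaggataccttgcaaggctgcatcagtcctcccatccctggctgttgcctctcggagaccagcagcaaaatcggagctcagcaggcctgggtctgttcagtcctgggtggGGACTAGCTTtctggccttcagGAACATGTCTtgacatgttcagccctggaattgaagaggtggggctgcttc
Mdm2, chr10:117710759-117711008, minus strand: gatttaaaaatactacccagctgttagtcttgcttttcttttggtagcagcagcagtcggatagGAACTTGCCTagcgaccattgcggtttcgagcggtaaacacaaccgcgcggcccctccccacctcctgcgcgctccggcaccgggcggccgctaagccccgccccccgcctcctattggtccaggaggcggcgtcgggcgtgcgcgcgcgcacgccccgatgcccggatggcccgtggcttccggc
The Ccng1 window held a paired site, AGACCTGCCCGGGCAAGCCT, with no spacer and 1 mismatch, beginning at position -195 from the start. At the upstream start of Cdkn1a a pair with 0 mismatches and a spacer of 12 bases began at position -73. That window held 2 pairs, and the other has no spacer and 1 mismatch. It joins GAACATGTCT to the bases right after it, tgacatgttc, which are not in capitals. The window of the downstream start of Cdkn1a held no half-site. Aen and Mdm2 each held a single half-site in the window shown. Sites outside such windows, as in introns, were not sought, so no gene is shown to lack a paired site. Among all 32851 windows of 300 bases in the table (250 before and 50 after a start), 8.36% held a half-site and 4.09% a paired site. Of the 31 windows of 22 measured members, 11 held a half-site and 6 a paired site. The 11 belong to 10 members, because the Aen windows overlap and share 1 half-site. Besides Ccng1 and Cdkn1a, the paired sites were in Gadd45a, Gtse1, Rps27l and Sesn1. A match is a description of letters and not of binding, which was not measured here.

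The label check and the state of the arrays come first. The single Setd2 probe set read 10.31, 10.30 and 10.31 in wild type and 9.37, 9.50 and 9.60 in knockout cells, a 1.76-fold lower signal (limma adjusted p = 0.0272). This call ended when any 1 array other than knockout replicate 1 was left out (limma adjusted p from 0.0690 to 0.212) and when the intensity trend was dropped (0.0916), while the difference stayed between -0.87 and -0.75. Whether it lies in the removed part is not stated, and knockout signal remained. Markers of embryonic stem cells were bright on every array, with a mean log2 signal over 9 markers from 12.88 to 12.95. Primitive endoderm markers had a summed linear signal of 893 to 1122 in wild type and 378 to 527 in knockout cells over 7 genes, and their part in the results below was not tested. Feeder fibroblast markers (26 of 27 measured, none at 0 on any array) summed to 14330 to 25613 in wild type and 17029 to 24856 in knockout cells. These ranges overlap by genotype but not by array number: the sums were 14330 and 17029 on the arrays numbered 1 and 19747 to 25613 on the other 4. Fewer cells of a type and less RNA per cell cannot be told apart in such bulk samples. The Y-linked gene Eif2s3y was at 4.92 ± 0.40 on the wild type and 11.30 ± 0.23 on the knockout arrays (SD, n = 3), so genotype and a difference in sex chromosomes between the lines cannot be told apart. Genes of chromosome 8 had a median difference of -0.34, and 0 of the 58 member probe sets belong to chromosome 8 or Y.

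Few of the measured p53 target genes were called as different between the genotypes, and their differences were more often above 0 than below. At the brightest tested probe set of each of the 30 genes, 22 were above 0 and 8 below 0, with a median of 0.11 on the log2 scale. Over all 12915 genes, 49.9% were above 0 and the median was -0.00056. Ccng1 alone, 1 of the 30, passed the threshold (limma adjusted p below 0.05 over all 27022 tested probe sets) as higher, and 0 passed as lower, against 0.256% and 0.48% of all genes. With the replicate block 4 rose and 0 fell, against 4.13% and 5.75%. The shares over all genes include chromosome 8, which holds no member probe set. It supplied 26 of the 62 genes called lower without the block and 270 of the 742 called lower with it. An unadjusted p below 0.05 was reached by 4 higher and 0 lower members, against 6.16% and 7.29%. Without both arrays numbered 1, 17 of the 30 were above 0 and the median was 0.06. Centring arrays on their medians gave 21 of 30, a member median of 0.07 and a median over all genes of -0.04.

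**Figure D1:**
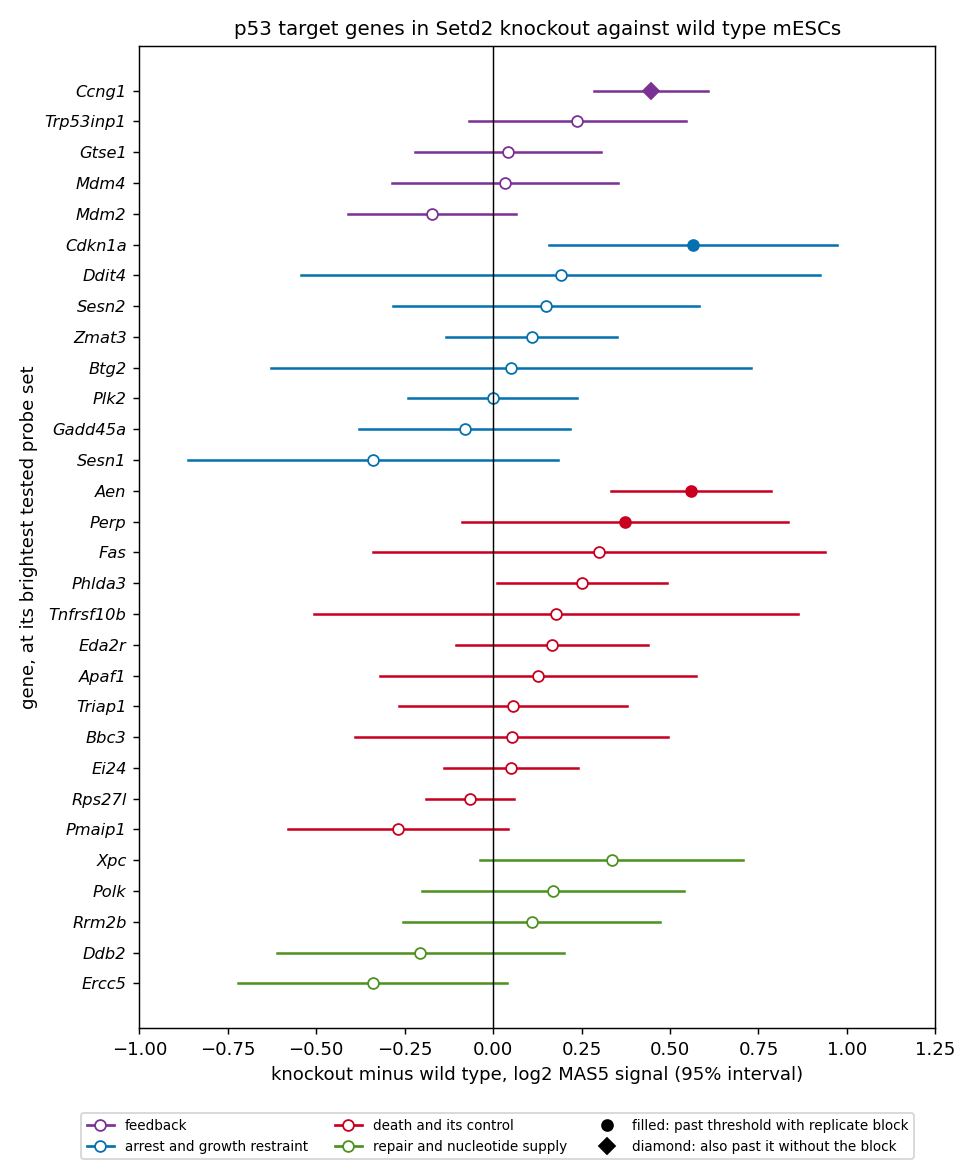
Difference between knockout and wild type (x axis, log2 MAS5 signal) for the 30 measured p53 target genes (y axis), each at its brightest tested probe set, with 95% intervals from limma and colours for the 4 roles. Ccng1, at 0.45, is the 1 diamond, and Aen, Cdkn1a and Perp are the other filled points. The interval of Perp, from the fit without the block, includes 0 (-0.09 to 0.83). So do those of the unfilled points, except that of Phlda3, which runs from 0.01 to 0.49.

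Among the feedback genes, Ccng1 was higher at all 3 of its probe sets and Mdm2 stood on the other side of 0. Ccng1 encodes cyclin G1, which recruits a phosphatase to Mdm2 and is a regular p53 target. Its brightest probe set (1420827_a_at) read 12.87, 13.02 and 13.002 in wild type and 13.43, 13.42 and 13.38 in knockout cells. The knockout arrays lay within a narrow band above all wild type arrays. The difference was 0.45 ± 0.07 (SE), a 1.36-fold higher signal (limma adjusted p = 0.0361; 0.00187 with the replicate block). The second, 1450017_at, read 11.05, 10.98 and 10.99 against 11.40, 11.39 and 11.48, a difference of 0.41 ± 0.09 (limma adjusted p = 0.106; 0.00740 with the block). The third, 1450016_at, read 12.67, 12.48 and 12.40 against 13.10, 12.68 and 12.85, a difference of 0.36 ± 0.12 (limma adjusted p = 0.289; 0.0108 with the block). In all 3 probe sets the groups did not overlap, and in the third the lowest knockout array was close to the highest wild type array. Leaving out wild type replicate 1, 2 or 3 ended the Ccng1 call (limma adjusted p = 0.0776, 0.172 and 0.213) and so did leaving out knockout replicate 2 or 3 (0.150 and 0.135). Testing dim probe sets too (0.0729), centring arrays on their medians (0.121) and dropping the intensity trend (0.252) also ended it. Over every alternative the difference lay between 0.39 and 0.47.

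Mdm2 encodes the ubiquitin ligase that marks p53 for destruction and is itself a p53 target. At 1423605_a_at it read 11.42, 11.33 and 11.34 in wild type and 11.33, 11.06 and 11.18 in knockout cells. Knockout replicate 1 was level with the lowest wild type array, and the other knockout arrays were lower. The difference was -0.17 with a 95% interval of -0.41 to 0.07 (limma adjusted p = 0.596; 0.205 with the block). At 1427718_a_at it read 10.36, 10.24 and 10.29 against 10.22, 9.996 and 10.13, so that all knockout arrays were lower, and the difference was -0.18 (-0.45 to 0.08; limma adjusted p = 0.619). The intervals leave out a rise of Mdm2 of the size measured for Ccng1. Another Mdm2 probe set was too dim to test, with means of 4.61 and 4.48.

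Mdm4 encodes a relative of Mdm2 that holds p53 inactive. Its brightest probe set (1460542_s_at) read 10.99, 10.81 and 10.76 in wild type and 11.14, 10.79 and 10.72 in knockout cells, a difference of 0.03 (-0.28 to 0.35). The other 3 differed by 0.22, 0.26 and -0.38, and none passed the threshold with or without the block. Of these, 1453982_at and 1458223_at had opposite signs. The former read 5.73, 6.16 and 5.95 against 5.86, 6.01 and 4.84, and its low mean rests on knockout replicate 3. The latter read 5.73, 5.86 and 6.46 against 6.15, 6.59 and 6.10. Both are dim, near the filter value of 5.27, below which probe sets were not tested.

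Trp53inp1 encodes a nuclear protein that favours p53 activity under stress. Its bright probe set (1416926_at) read 13.51, 13.21 and 13.10 in wild type and 13.73, 13.31 and 13.50 in knockout cells. Each knockout array was above the wild type array of the same number, and the groups overlapped. The difference was 0.24 (-0.07 to 0.55; limma adjusted p = 0.563; 0.0567 with the block). The dim probe set 1416927_at read 6.09, 5.96 and 6.09 against 7.36, 6.39 and 6.81, all knockout arrays higher, a difference of 0.81 (0.15 to 1.46; limma adjusted p = 0.319; 0.0923 with the block). Gtse1, whose product carries p53 out of the nucleus in the second gap phase, differed by 0.04 (-0.22 to 0.31).

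**Figure D2:**
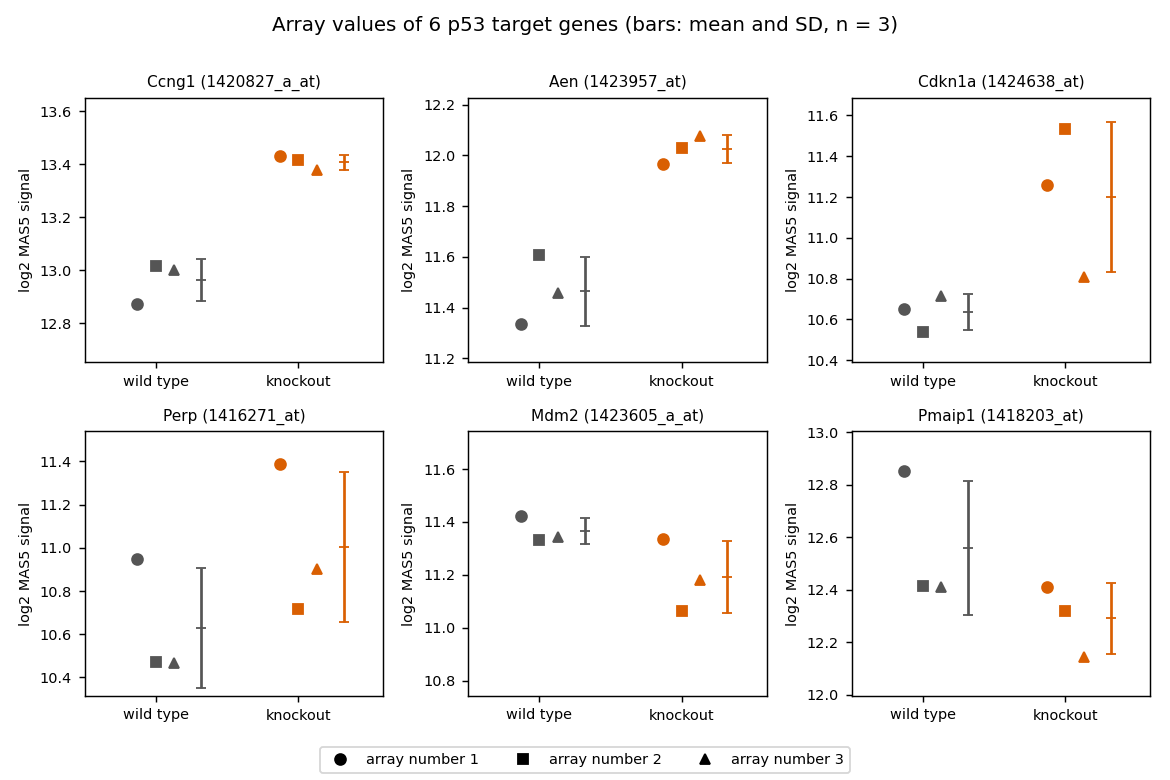
Log2 MAS5 signal (y axes, each of its own range) of 6 p53 target genes on the 3 wild type and 3 knockout arrays, with symbols for the array number and bars for mean and SD. For Ccng1, Aen and Cdkn1a the knockout arrays lie above the wild type arrays, for Perp the groups overlap while each number moves upward, and for Mdm2 and Pmaip1 the knockout arrays sit low.

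Of the 8 measured genes of arrest and growth restraint, 0 passed the threshold without the block. With it 1, Cdkn1a, rose, against 4.13% of all genes. Cdkn1a encodes p21, the inhibitor of cyclin-dependent kinases through which p53 stops the cell cycle. Its brightest probe set (1424638_at) read 10.65, 10.54 and 10.72 in wild type and 11.26, 11.54 and 10.81 in knockout cells. All knockout arrays were higher, and knockout replicate 3 was close to the wild type range. The difference was 0.56 ± 0.18 (SE), 1.48-fold (limma adjusted p = 0.256; 0.0314 with the replicate block). The other probe set, 1421679_a_at, read 9.88, 9.82 and 9.95 against 10.21, 10.02 and 10.26. There too every knockout array was higher, by 0.28 ± 0.12 (limma adjusted p = 0.419; 0.0859 with the block). Without both arrays numbered 1, limma gave the brighter probe set an adjusted p of 0.119.

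The other arrest genes stayed short of the threshold in both fits. Sesn1 encodes a sestrin, a stress protein that dampens the growth kinase complex mTORC1. Its differences at 3 tested probe sets were -0.34, -0.32 and -0.48, with overlapping groups. At 1454699_at it read 8.91, 8.05 and 8.20 in wild type and 8.34, 7.58 and 7.80 in knockout cells, each number lower, a difference of -0.48 (limma adjusted p = 0.585; 0.0613 with the block). Sesn2, its relative, differed by 0.15 and 0.19. Ddit4, another brake on mTORC1, read 12.61, 11.71 and 11.64 in wild type and 12.81, 11.94 and 11.78 in knockout cells. Each number was slightly higher in the knockout, by 0.19 on average (limma adjusted p = 0.885; 0.107 with the block), within a wider gap between number 1 and the other numbers. Btg2, an antiproliferative gene, differed by 0.05 and 0.12, Zmat3, an RNA-binding protein gene, by 0.11 and Gadd45a, a growth arrest gene, by -0.08.

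Plk2, a kinase gene induced by p53, differed by -0.0015 at its bright probe set (1427005_at, 95% interval -0.24 to 0.24). A second Plk2 probe set, 1443780_at, was too dim to test. It read 2.18, 1.69 and 2.18 in wild type and 4.10, 4.75 and 4.98 in knockout cells. All knockout arrays were higher there, although every value lay below the filter value of 5.27. No test or fold is drawn from it.

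Of the 12 measured genes of death and its control, 10 differences were above 0, against 49.9% of all genes. Without the block 0 passed the threshold, and with it Aen and Perp rose, against 4.13% of all genes. Aen encodes a nuclease that p53 induces and that enhances apoptosis. Its brightest probe set (1423957_at) read 11.33, 11.61 and 11.46 in wild type and 11.97, 12.03 and 12.08 in knockout cells. The knockout arrays lay close together above the wild type arrays. The difference was 0.56 ± 0.10 (SE), 1.47-fold, just short of the threshold without the block (limma adjusted p = 0.0573; 0.00141 with the block). It passed after quantile normalization (limma adjusted p = 0.0450), with values below 5 set to 5 (0.0481), without both arrays numbered 1 (0.00403) and without knockout replicate 1 (0.0385). It did not pass with dim probe sets tested too (0.0697), with arrays centred on their medians (0.117) or without the intensity trend (0.206). Nor did it pass when any 1 array other than knockout replicate 1 was left out (limma adjusted p up to 0.319). A second probe set, 1450506_a_at, read 10.37, 10.75 and 10.57 against 11.04, 11.15 and 11.14, again all higher, by 0.54 ± 0.12 (limma adjusted p = 0.117; 0.00345 with the block). The other 2 Aen probe sets, both dimmer, differed by 0.04 and 0.26.

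Perp encodes a membrane protein of desmosomes that p53 induces during apoptosis, and it is also an epithelial gene. At its probe set 1416271_at it read 10.95, 10.47 and 10.47 in wild type and 11.39, 10.72 and 10.90 in knockout cells. Each knockout array was above the wild type array of its number, while the groups overlapped because both arrays numbered 1 were high. The difference was 0.37, with an SE of 0.20 without and 0.08 with the block (limma adjusted p = 0.543 and 0.0195). Without both arrays numbered 1, limma gave an adjusted p of 0.0598.

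Phlda3, which encodes an inhibitor of the kinase Akt, read 10.74, 10.94 and 10.77 in wild type and 11.03, 11.15 and 11.04 in knockout cells. All knockout arrays were higher, by 0.25 (0.01 to 0.49; limma adjusted p = 0.407; 0.0734 with the block). Eda2r, a death receptor relative on the X chromosome, read 9.87, 10.08 and 9.99 against 10.10, 10.12 and 10.23. Those groups were apart by a small margin, with a difference of 0.17 (-0.10 to 0.44; limma adjusted p = 0.669).

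Pmaip1, which encodes the BH3-only protein Noxa, went the other way. It read 12.85, 12.41 and 12.41 in wild type and 12.41, 12.32 and 12.15 in knockout cells. The lowest wild type and the highest knockout value were equal to 2 decimals, and the high wild type value was that of number 1. The difference was -0.27 (-0.58 to 0.04; limma adjusted p = 0.506; 0.0571 with the block). Bbc3, which encodes Puma, the other BH3-only protein of the list, differed by 0.05 (-0.39 to 0.49). Rps27l, a ribosomal protein paralog, differed by -0.07, -0.09 and -0.10 at 3 probe sets. At 1423254_x_at it read 14.24, 14.16 and 14.14 against 14.14, 14.01 and 14.11 (limma adjusted p = 0.614), and probes of this kind may also match its paralog. The remaining death genes, Fas, Tnfrsf10b, Apaf1, Triap1 and Ei24, differed by 0.05 to 0.30 at their brightest probe sets, and Fas was dim, with means of 5.87 and 6.17.

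**Figure D3:**
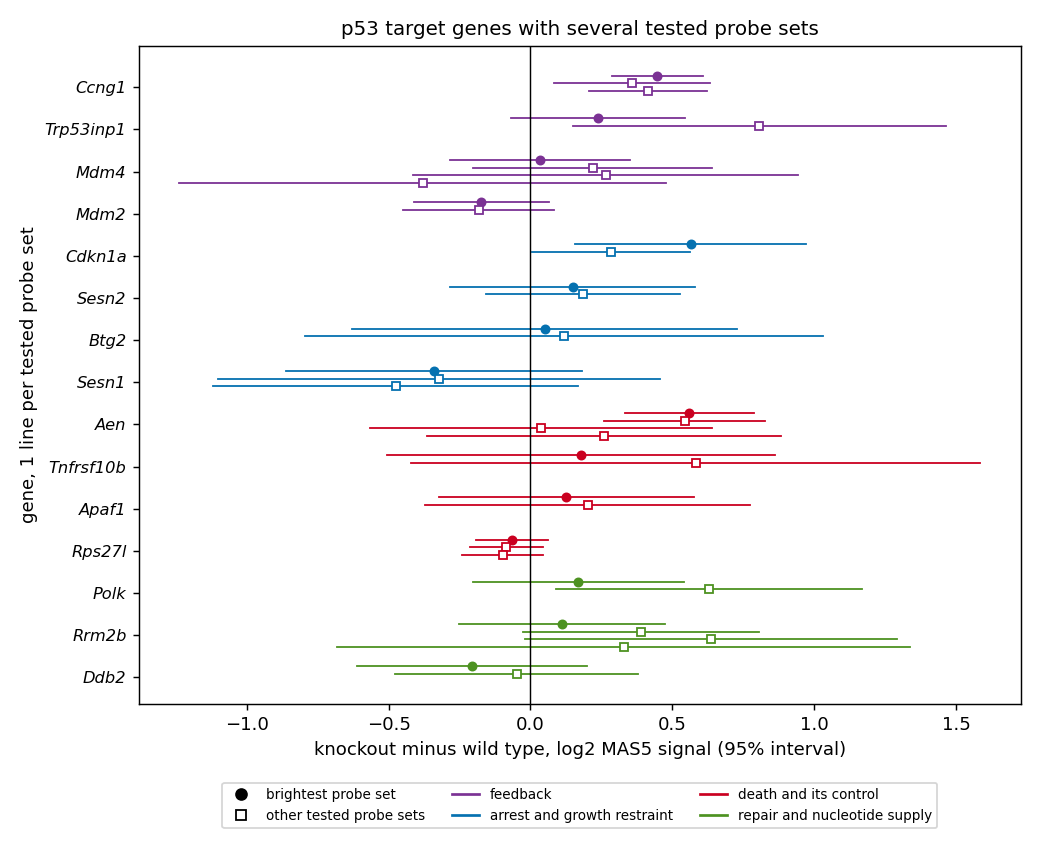
Difference between knockout and wild type (x axis, log2 MAS5 signal) at each tested probe set of the 15 p53 target genes with several (y axis), with 95% intervals from limma. The 3 lines of Ccng1 and the 2 of Cdkn1a lie above 0, those of Sesn1 and Mdm2 have their points below 0, and the brightest 2 of the 4 Aen probe sets sit at 0.56 and 0.54.

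Of the 5 repair genes, 0 passed the threshold in either fit, and their differences went both ways. Over all genes 4.13% rose and 5.75% fell with the block. Xpc, the damage sensor of nucleotide excision repair, read 8.48, 8.45 and 8.38 in wild type and 9.02, 8.57 and 8.72 in knockout cells. All knockout arrays were higher, by 0.33 (-0.04 to 0.71; limma adjusted p = 0.482; 0.161 with the block). Ddb2, which finds ultraviolet damage for the same pathway, differed by -0.21 and -0.05. Ercc5, an endonuclease gene of that pathway, read 10.03, 9.93 and 9.86 against 9.92, 9.34 and 9.54. Knockout replicate 1 lay within the wild type range and the other knockout arrays below it, a difference of -0.34 (-0.72 to 0.04; limma adjusted p = 0.485; 0.0949 with the block). Without both arrays numbered 1, Ercc5 passed the threshold as lower (limma adjusted p = 0.0377).

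Polk encodes a polymerase that copies past damaged bases. Its bright probe set differed by 0.17 (-0.20 to 0.54). The dimmer 1419501_at read 6.95, 6.88 and 6.40 in wild type and 7.66, 7.17 and 7.29 in knockout cells, all higher, by 0.63 (0.09 to 1.17; limma adjusted p = 0.340; 0.0926 with the block). Rrm2b encodes the p53-induced subunit of ribonucleotide reductase, which supplies nucleotides for repair. It differed by 0.11 at its brightest probe set and by 0.39, 0.64 and 0.33 at dimmer ones. At 1437476_at it read 7.09, 6.82 and 6.93 against 7.33, 7.38 and 7.30, and at 1437222_x_at 5.39, 5.55 and 5.50 against 5.90, 5.98 and 6.47. In both the knockout arrays were all higher, with limma adjusted p of 0.460 and 0.442.

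Counted by separation, 6 of the 30 genes had all knockout arrays above all wild type arrays at the brightest probe set, and 1 had them all below, against 9.26% and 9.97% of all genes. The 6 were Ccng1, Cdkn1a, Aen, Phlda3, Eda2r and Xpc, and the 1 was Pmaip1. Over the 54 tested member probe sets the counts were 14 and 3, against 9.16% and 8.99% of all tested probe sets, and probe sets of 1 gene share its RNA. The 15 members with a single tested probe set have no second reading.

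The arrays numbered 1 of both genotypes were above all the other 4 arrays for 10 of the 30 genes and below them for 2, against 23.6% and 16.9% of all genes. In either direction these were 12 of the 30, against 40.5% of all genes, so the count is about that of all genes. The widest member gaps were those of Ddit4 at 0.94, Btg2 at 0.81, Perp at 0.53 and Sesn1 at 0.52 on the log2 scale. Ccng1, Cdkn1a, Aen and Phlda3 were not among the 10, with gaps from -0.14 to 0.06. Feeder markers were low on the same arrays, as given above, and their part in these gaps was not tested.

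**Figure D4:**
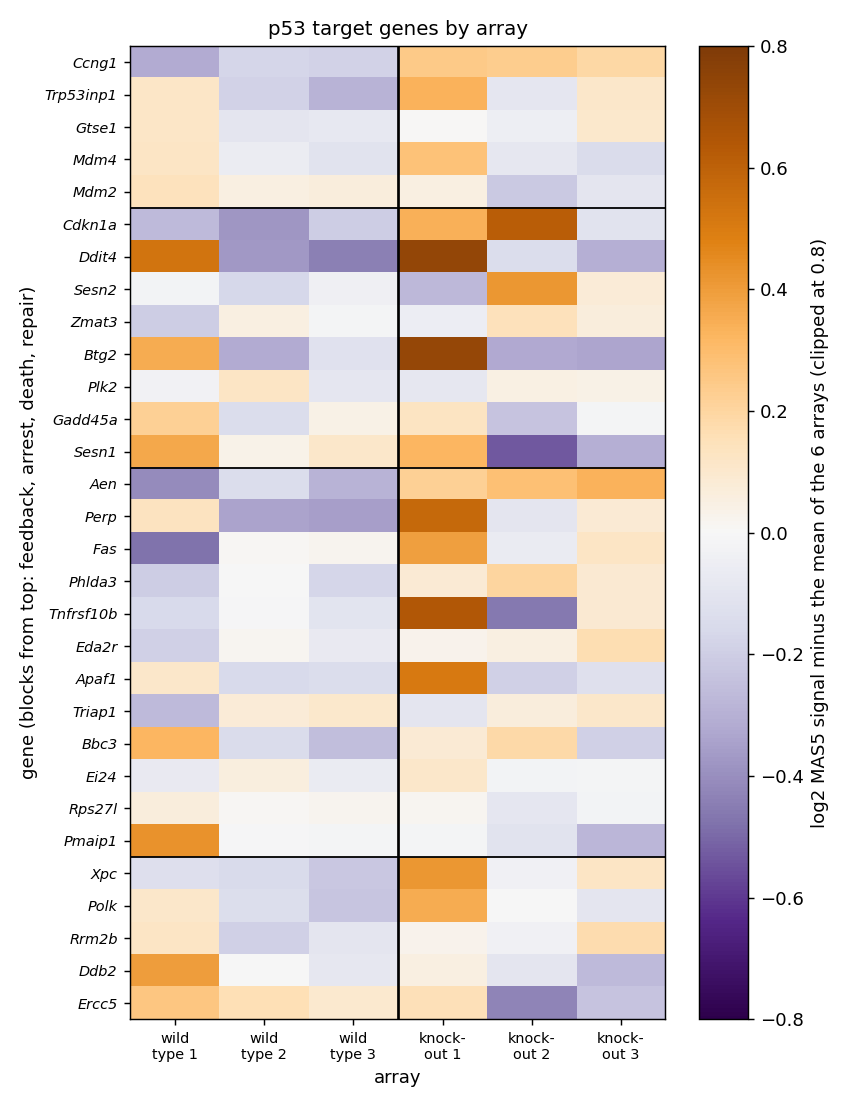
Log2 MAS5 signal of the 30 p53 target genes (rows, at the brightest tested probe set) on the 6 arrays (columns), as the deviation from each gene's mean over the arrays and clipped at 0.8. Ccng1 and Aen change colour at the line between genotypes, while Ddit4 and Btg2 are high on array 1 of both genotypes.

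Among genes that act on p53, Usp10 fell at its brightest probe set and Atm at the dimmer of its 2. Counted at the brightest probe set, 0 of 34 tested genes rose and 1 fell, against 0.256% and 0.48% of all genes. With the block 2 rose and 3 fell, against 4.13% and 5.75%, and the median was -0.08. Of the 34, 13 were above 0 and 21 below. All knockout arrays lay above all wild type arrays for 5 genes and below them for 9, against 9.26% and 9.97% of all genes. Atm encodes the kinase that signals double-strand breaks to p53. Its probe set 1421205_at read 9.65, 10.06 and 9.95 in wild type and 7.67, 7.79 and 8.05 in knockout cells. No array of one genotype came near the other. The difference was -2.05 ± 0.17 (SE), 4.15-fold lower in signal (limma adjusted p = 0.00195, and 8.69e-06 with the block), and it passed without each single array (limma adjusted p up to 0.0267). The brighter Atm probe set, 1428830_at, read 10.29, 10.50 and 10.58 against 9.94, 10.07 and 10.13, all lower too. There the difference was -0.41 ± 0.12 (limma adjusted p = 0.243; 0.0157 with the block), a much smaller fall than at the first. Atm lies on chromosome 9, as do Setd2 itself and Chek1, described below. Whether this location has a part in their readings was not tested.

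Usp10, which encodes a deubiquitinase that stabilises p53, was the 1 called gene at its brightest probe set. It read 11.86, 11.75 and 11.77 in wild type and 11.18, 11.12 and 11.20 in knockout cells, 1.55-fold lower (limma adjusted p = 0.0239; 0.000612 with the block). This call ended when any 1 array other than knockout replicate 1 was left out (limma adjusted p from 0.0671 to 0.188) and when the intensity trend was dropped (0.129). Usp10 lies on chromosome 8, where 612 of 709 tested genes were lower. The other genes called with the block, named after their values were seen, were Brd7, a p53 cofactor gene also on chromosome 8, at -0.47, and Chek2, a checkpoint kinase gene, and Kat8, an acetyltransferase gene, at 0.30 and 0.38. Chek1, a checkpoint kinase gene with 4 tested probe sets, was called with the block at its dimmest tested one, 1420032_at. It read 6.63, 7.03 and 6.86 in wild type and 5.13, 6.08 and 5.97 in knockout cells, a difference of -1.12 ± 0.31 (SE), 2.17-fold lower (limma adjusted p = 0.197; 0.0300 with the block). All knockout arrays were lower there, and knockout replicate 1 lay below the filter value. The brighter 3 Chek1 probe sets differed by -0.21, -0.25 and -0.37 and were not called in either fit.

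**Figure D5:**
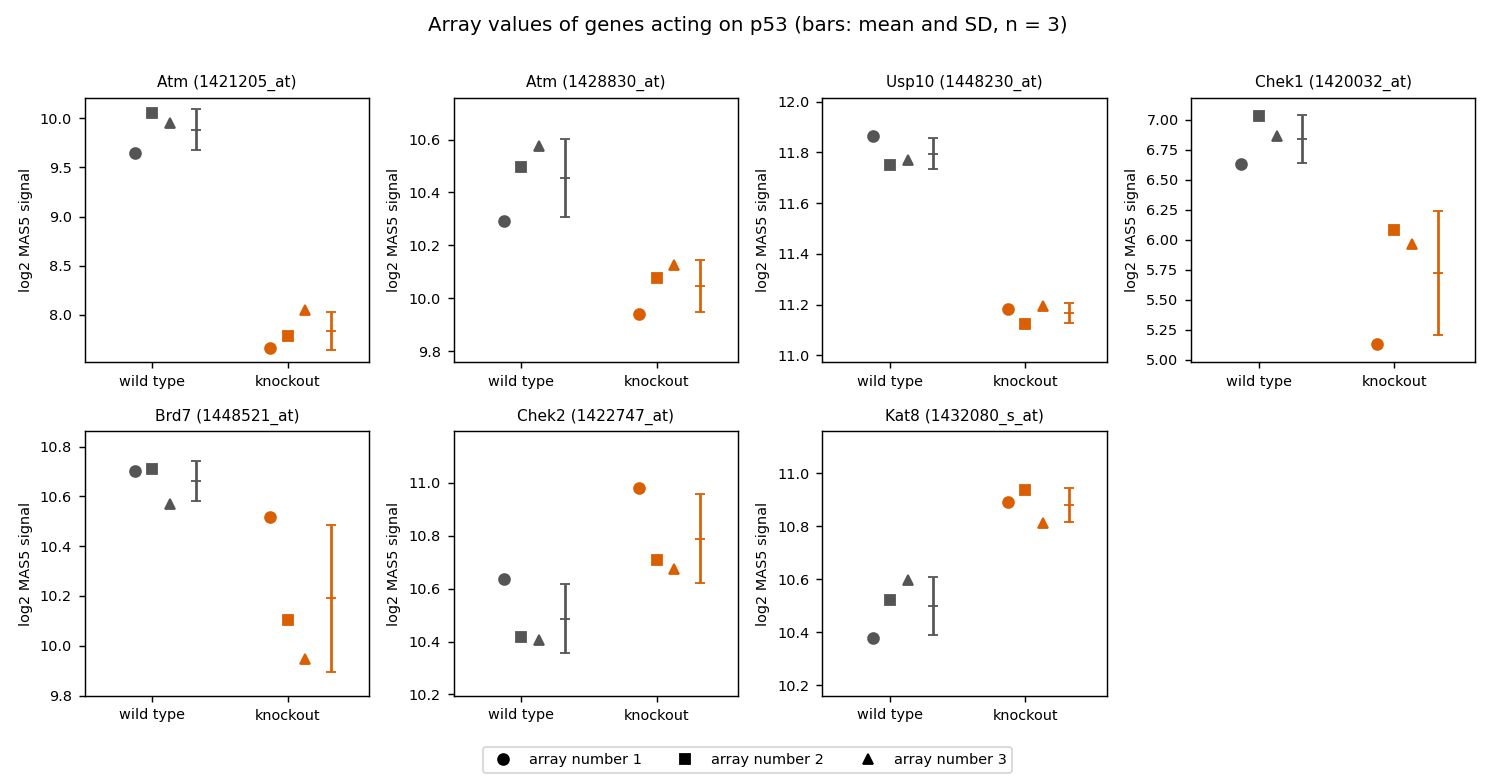
Log2 MAS5 signal (y axes, each of its own range) of genes that act on p53, on the 3 wild type and 3 knockout arrays, with symbols for the array number and bars for mean and SD. Atm is shown at both of its probe sets, near 9.89 and 7.83 for 1421205_at and near 10.45 and 10.05 for 1428830_at, and the groups are apart in all 7 panels, which are the probe sets of this list called with or without the block.

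Further p53 targets outside the member list numbered 39 tested genes, with a median of 0.08. Of these 0 passed the threshold without the block, and 3 rose and 2 fell with it, against 4.13% and 5.75% of all genes. An unadjusted p below 0.05 in limma was reached by 4 higher and 3 lower genes, against 6.16% and 7.29%. Those called with the block, named after their values were seen, were Fuca1 (a lysosomal fucosidase), Igfbp3 (a binding protein of insulin-like growth factors) and Rap2b (a small GTPase), higher by 0.50, 0.60 and 0.37, and Epha2 and Ckap2 at -0.41 and -0.31. These are readings at the brightest probe sets. Rap2b differed by 0.11 and 0.31 at its other tested ones, and Igfbp3 by 0.38. There the groups overlapped and no call was made in either fit. Fuca1 differed by 0.47 and 0.33 at its others, and only the former was called with the block. Ckap2 lies on chromosome 8. Genes of the second gap phase and mitosis, which p53 and p21 are known to hold down, had a median of 0.07 over 14 tested genes. Of the 14, 12 were above 0, and 5 had all knockout arrays above all wild type arrays and 0 below, against 9.26% and 9.97% of all genes. None passed without the block, and an unadjusted p below 0.05 in limma was reached by 4 higher and 0 lower, against 6.16% and 7.29%. With the block Aurkb and Cenpf rose, by 0.36 and 0.29, and 0 fell, against 4.13% and 5.75%.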

How the data were processed

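Total RNA from 6 mESC cultures was hybridised to Affymetrix mouse genome arrays, 3 per genotype. The deposited values are log2 signals made by the authors with MAS5, per the submitters' processing notes (no version or genome build is given in the sources used here). Between 280 and 454 values per array were 0, and array medians lay between 6.09 and 6.22. Precision is limited by having 3 arrays per genotype. Annotation named 1 gene for 34945 probe sets, several for 932 and none here for 9160; 34741 symbols were updated through a RefSeq table (GRCm38.p6).

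Probe sets with a mean below the 40th percentile (5.27) were not tested. Knockout minus wild type was fitted over the other 27022 with limma 3.58.1 in R 4.3.3 (intensity trend, two-sided, Benjamini-Hochberg, threshold 0.05) and checked on simulated data. The simulated shifts were larger than every tested member difference, and no effect of array number was simulated. That check therefore does not cover differences of the size given for the members. For counts of genes, the probe set of the highest mean among those tested stood for its gene. Named in full were Mdm2, Cdkn1a and Ccng1, members called in either fit, members with a tested probe set whose groups were apart, and members whose tested probe sets differed in sign by over 0.5. Members and lists were chosen with earlier results of these data known.

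Titles number the arrays 1 to 3 in both genotypes. Deviations from genotype means correlated at r = 0.50, 0.23 and 0.24 for same-numbered arrays, across probe sets, all over 0.1, so the numbers were taken as pairs and the replicate block is given beside the fit without it. Wild type 2 and knockout 3 correlated at 0.23 as well, and wild type 3 and knockout 2 at 0.17, so numbers 2 and 3 are not clearly paired. Deviations cancel out within a genotype, so the match of the arrays numbered 1 by itself raises the correlations among the others. The bound of 0.1 therefore cannot decide whether numbers 2 and 3 are pairs. Alternatives were the block, no filter, quantile normalization, median centring, no trend, a floor of 5, and arrays left out.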

Additional observations from a re-analysis of the deposited data

How the results depend on the processing

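The number of member genes called higher, 1 without a block, was 4 with the replicate block. It was 2 after quantile normalization, with values below 5 set to 5 and without both arrays numbered 1. It was 0 without the filter on dim probe sets, with arrays centred on their medians and without the intensity trend, and 0 to 2 with single arrays left out. The number called lower was 0 in every setting run except 1 without both arrays numbered 1, which was Ercc5. Over all probe sets the 74 higher and 101 lower became 944 and 1185 with the replicate block, 914 and 1111 without both arrays numbered 1, and 30 and 27 without the intensity trend. Leaving out single arrays gave 17 to 160 higher and 14 to 277 lower. The cause of these shifts was not tested, except that fewer arrays enter the fits that leave some out. The sign of Mdm4 at 1460542_s_at turned to -0.0078 with arrays centred on their medians and to -0.028 without both arrays numbered 1, and ran from -0.10 to 0.11 with single arrays left out. Dim probe sets, with values near 5.27 or below, limit what can be read for Fas, Tnfrsf10b and the second Plk2 probe set. The same holds for the dimmer probe sets of Mdm4, Rrm2b and Trp53inp1 and the dimmest of Aen. The replicate block changed no other call among the members named.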
